A study of Mus musculus with 16 samples.

Results

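Solute carriers (Slc genes) were described in crypt cells sorted from the duodenum of mice. The set holds every gene whose platform symbol starts with Slc and a digit, without the mitochondrial Slc25 carriers and without Slc12a2, Slc2a5 and Slc18a1. A gene was kept if a probe lay above the array median on 2 or more of the 16 arrays, and 190 of the 10607 named genes tested were Slc genes of this kind. The table held probes for 284 Slc genes by the same name rule. The other 94 did not pass the filter: 13 lay above the median on 1 array and 81 on none. A few of the 190 are named after a transporter without being one, among them Slc9a3r1 and Slc9a3r2, scaffold proteins that bind the tails of membrane transporters.

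The 6 groups were profiled on Illumina bead arrays from mice of a mixed B6/129S6 background, 8 to 12 weeks old, all given doxycycline (4 mg/ml in 1% sucrose) in their drinking water for 24 h. In the BRAF line doxycycline switches on BRAF(V600K), an oncogenic form of the kinase that activates MEK and ERK, fused to red TdTomato. In the luciferase (luc) line it switches on TdTomato-luciferase. Both lines carry an EGFP reporter of Lgr5, a gene of intestinal stem cells, and cells were sorted by red and green fluorescence. The groups were BRAF RG (red and green high, 3 mice), BRAF G (green only, 3 mice), BRAF R (red only, 3 mice), BRAF NEG (neither, 3 mice), luc RG (2 mice) and luc G (2 mice). Within a line, gates that share a mouse number share the animal, and cells outside a red gate had also been exposed to doxycycline. BRAF and luciferase were carried by different lines, so transgene and line cannot be told apart. No R or NEG gate of the luciferase line was analysed here.

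Solute carriers are membrane proteins that move small molecules and ions across the plasma membrane and organelle membranes, as exchangers, as cotransporters driven by the sodium or proton gradient, or by facilitated diffusion. In the small intestine absorptive enterocytes take up sugars, amino acids, peptides and bile acids through carriers of the apical membrane and release them through others of the basolateral membrane. Dividing cells also use carriers for glucose, neutral amino acids and metals to supply growth, and secretory cells use vesicular and Golgi carriers to load granules and to supply nucleotide sugars for glycosylation.

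By substrate, 40 of the 190 Slc genes carry amino acids or peptides, 25 inorganic ions, 25 metals, 19 sugars and 16 vitamins, nucleosides or haem. The Slc35 family, most of whose known members carry nucleotide sugars into the Golgi, gave 20. Organic ions and bile acids had 13, lipids and choline 10, monocarboxylates and dicarboxylates 8, vesicular and lysosomal carriers 8, and 6 fell outside these classes. Of 31 transporters well known from the intestine or from growth signalling, 25 were among the 190. Slc1a5, Slc16a1 and Slc4a4 had probes that lay at or below the median on every array, and Slc3a1, Slc30a2 and Slc9a3 had no named probe in the table used here.

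Promoters are shown for the sugar carrier and the amino acid carrier whose rise in BRAF R cells is described below, Slc2a1 and Slc7a9. Each window runs from 250 bases before to 50 bases after the start of the gene in RefSeq on build GRCm38.p6. The Slc2a1 window is chr4:119108495-119108794 and that of Slc7a9, the first of 2 for this gene, is chr7:35448842-35449141, both on the plus strand. Capitals mark matches on either strand to the GC box GGGCGG and to ACGTG, the core of the hypoxia-response element. TGANTCA, the AP-1 site, was also searched.
Slc2a1: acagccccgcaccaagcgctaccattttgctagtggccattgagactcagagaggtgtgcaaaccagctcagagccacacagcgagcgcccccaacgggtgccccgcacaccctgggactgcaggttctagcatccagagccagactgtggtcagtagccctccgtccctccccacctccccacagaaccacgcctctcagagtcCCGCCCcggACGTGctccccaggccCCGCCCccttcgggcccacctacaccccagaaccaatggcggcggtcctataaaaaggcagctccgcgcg
Slc7a9: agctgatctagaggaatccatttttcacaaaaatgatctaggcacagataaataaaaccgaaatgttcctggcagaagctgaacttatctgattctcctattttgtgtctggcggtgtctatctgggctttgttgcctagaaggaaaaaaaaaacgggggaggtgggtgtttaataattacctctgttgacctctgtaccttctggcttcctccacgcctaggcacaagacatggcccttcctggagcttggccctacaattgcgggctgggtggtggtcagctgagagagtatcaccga
The Slc2a1 window held 2 matches to the GC box, 1 to ACGTG and 0 to the AP-1 site, and the Slc7a9 window held none of these letters. Of the 190 Slc genes, 150 had a promoter in the table. Among these, 68% held a GC box in at least 1 of their windows, against 38.2% of all 27025 genes with a window of the same length. ACGTG was found for 32.7% of these Slc genes, against 21.8% of all genes with a window, and TGANTCA for 5.33%, against 8.97%. The wider set was not filtered by level on these arrays. These shares thus compare unlike sets and are not read as a trait of Slc promoters. A match to one of these motifs never lies within a match to another. A match is a string of letters and was not tied to binding of any factor.

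Levels are given as log2 of the deposited intensity, on which the array median lay at 6.90. The brightest Slc probes were those of Slc6a6, the taurine carrier (mean of all arrays 11.84), Slc9a3r1 (11.54), the zinc and manganese importer Slc39a8 (10.81), the facilitative glucose carrier Slc2a1 (10.63) and Slc35a3, the Golgi carrier of UDP-N-acetylglucosamine (10.28). Brightness depends on the probe as well as on the RNA, so this is an order of probes and not of transporters. Slc6a6 varied little, with 0.26 between its highest and lowest group mean and no call in any comparison. The median Slc gene had a range of 0.787 between group means, 64 had a range over 1 and 9 a range over 2.

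The group means ranged most for Slc28a1 (2.80), a sodium-coupled pyrimidine nucleoside carrier, Slc2a2 (2.54), which lets glucose and fructose out of enterocytes, and Slc1a3 (2.40), a glutamate carrier. They were followed by the imino acid carrier Slc6a20a (2.38), Slc2a1 (2.35), the proline carrier Slc6a7 (2.25), the branched-chain and aromatic amino acid carrier Slc43a2 (2.16) and the cystine and dibasic amino acid carrier Slc7a9 (2.09). Luc RG cells had the highest mean of the 6 groups for 79 Slc genes and BRAF R cells for 44, against 10 for BRAF RG, 16 for BRAF G, 32 for luc G and 9 for BRAF NEG. The lowest mean lay in BRAF G cells for 50 genes. The median SD of an Slc gene was 0.341 in BRAF R, 0.262 in BRAF RG and 0.243 in luc RG cells, and 0.207 in BRAF NEG, 0.169 in BRAF G and 0.120 in luc G cells. The red gates had the larger SDs in both lines.

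**Figure D1:**
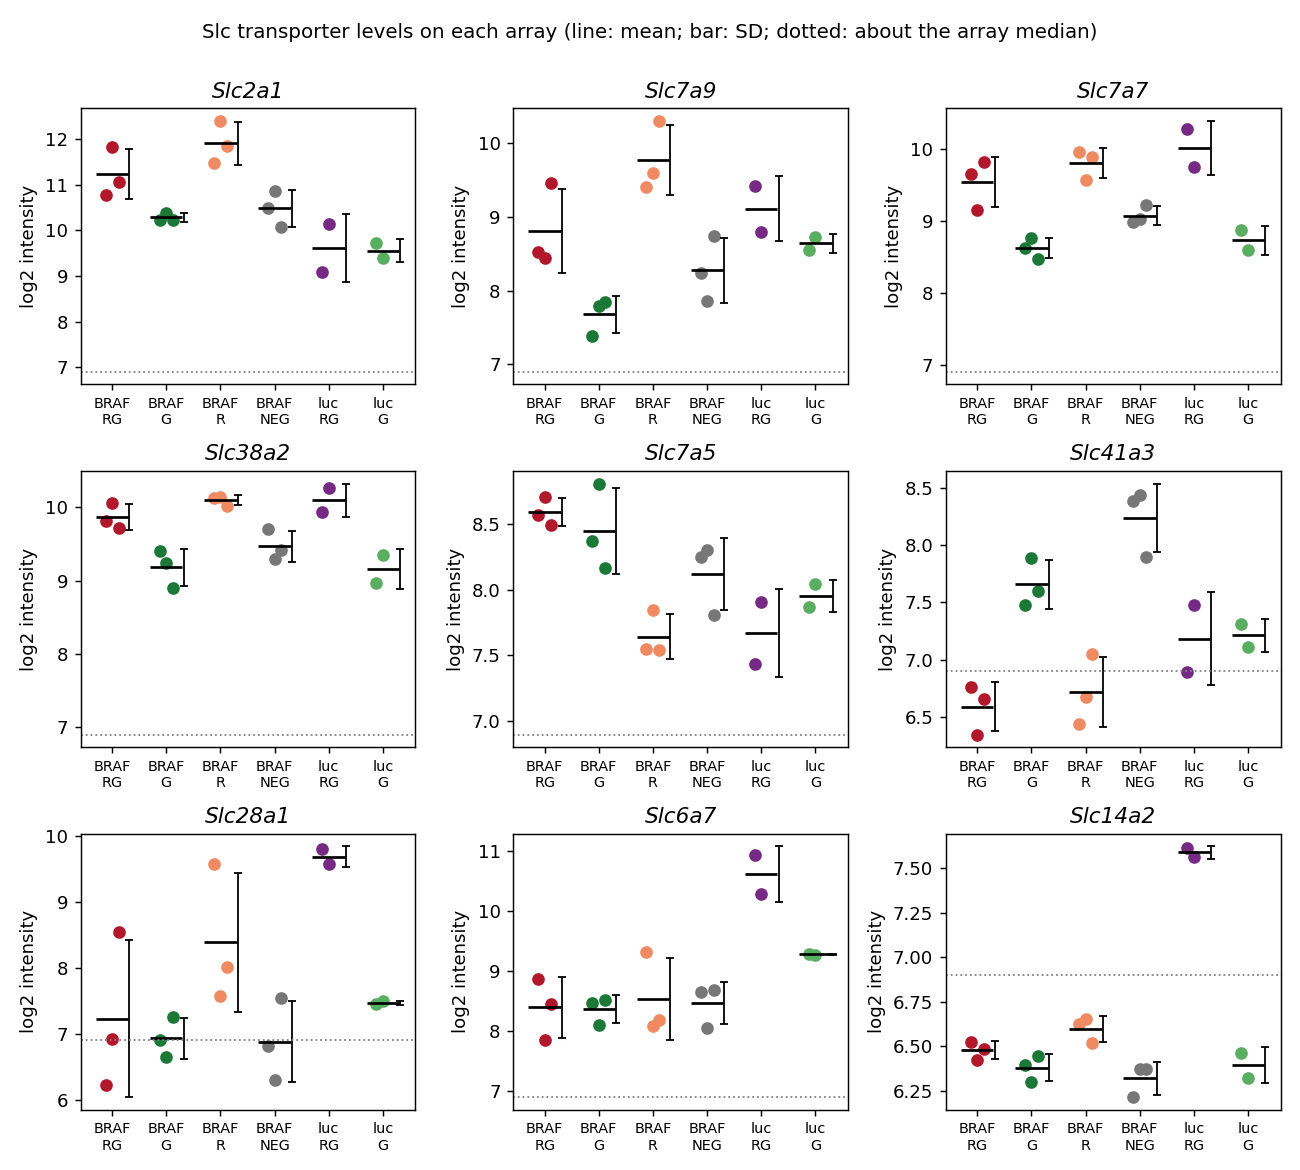
Log2 intensity (vertical axis) of 9 Slc genes on every array, by group (horizontal axis); points are arrays, lines group means, bars SD, and the dotted line is close to the array median. Slc2a1 lay between 10.78 and 12.40 in the BRAF red gates and between 9.09 and 10.15 in luc RG, and Slc14a2 lay above the median on the 2 luc RG arrays only.

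Red against non-red Lgr5-high cells of the BRAF line (BRAF RG against BRAF G) gave 2 Slc genes past the threshold of adjusted p 0.05, 1 in each direction. Slc7a7, the basolateral exchanger that releases cationic amino acids from enterocytes, rose, and Slc41a3, a magnesium carrier, fell. Slc7a7 had 9.65, 9.15 and 9.81 in BRAF RG cells, against 8.62, 8.76 and 8.47 in BRAF G cells of the same mice. All 3 red fractions lay above all 3 non-red ones (log2 difference 0.92, SE 0.20, limma adjusted p = 0.0426). Slc41a3 had 6.76, 6.35 and 6.66 in BRAF RG cells, at or below the array median on all 3 arrays, against 7.48, 7.89 and 7.60 in BRAF G cells. Its level was at least 1.69-fold lower in BRAF RG cells (log2 difference -1.07, SE 0.21, limma adjusted p = 0.0260), and its 2 other kept probes differed by -0.58 and 0.05. Over all genes 0.801% passed in this comparison, 0.566% higher and 0.236% lower, so 1.05% of the Slc genes is near the background. The median Slc gene had a difference of 0.06, beside -0.02 over all genes. Of the tuft cell markers 6 of 8 were lower in BRAF RG cells, with summed intensities of 815 to 868, against 2054 to 2493 in BRAF G cells, and 4 of 13 enteroendocrine markers were higher (15550 to 18319, against 6314 to 10682). Their part in the Slc differences was not tested.

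Several carriers had higher means in BRAF RG cells without passing. Slc2a1 had 10.78, 11.84 and 11.07 in BRAF RG cells, against 10.23, 10.39 and 10.23 in BRAF G cells. These do not overlap, but the difference of 0.94 had a limma adjusted p of 0.278. Slc7a9 had 8.52, 8.45 and 9.47 in BRAF RG cells, against 7.39, 7.80 and 7.85 in BRAF G cells (difference 1.13, limma adjusted p = 0.134). With the mouse as a block, Slc7a9 passed (limma adjusted p = 0.0128), as did the amino acid carrier Slc38a2 (difference 0.68, limma adjusted p = 0.116 without the block and 0.0379 with it). The block raised the count of Slc genes from 2 to 7, 5 higher and 2 lower, over a background of 1.89%. Leaving out any 1 BRAF mouse left 0 Slc genes past the limma threshold; with all mice 23 had an unadjusted p under 0.05.

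Among Lgr5-low cells, BRAF R against BRAF NEG, 15 Slc genes were higher and 6 lower, which is 7.89% and 3.16% of the 190. Over all genes 12.6% passed, 5.26% higher and 7.3% lower. By class the higher genes were 6 amino acid carriers, 3 ion carriers, 3 metal carriers, 1 sugar carrier, 1 Slc35 gene and 1 vesicular or lysosomal carrier. The median difference was 0.12 for Slc genes (0.08 with dim genes at their bound), beside -0.01 over all genes.

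The carrier with the strongest rise among the sugar transporters was Slc2a1, whose product takes glucose into most dividing cells. It had 11.47, 12.40 and 11.86 in BRAF R cells, against 10.49, 10.87 and 10.08 in BRAF NEG cells, a log2 difference of 1.43 (SE 0.32, limma adjusted p = 0.00807). The 3 BRAF R arrays were all brighter than any NEG array. Slc2a3, a glucose carrier of neurons and blood cells, went the other way, with 6.98, 6.66 and 6.32 in BRAF R cells, against 7.83, 8.06 and 7.29 in BRAF NEG cells, at least 1.74-fold lower (limma adjusted p = 0.00230). Of the intestinal sugar carriers, the sodium-coupled apical Slc5a1 had a difference of 0.35 (limma adjusted p = 0.613) and Slc2a2 of 0.98 (limma adjusted p = 0.207).

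Amino acid carriers of the enterocyte membranes were among those that rose in BRAF R cells. Slc7a9, the apical cystine and dibasic amino acid exchanger, had 9.41, 9.60 and 10.30 in BRAF R cells, against 8.24, 7.86 and 8.74 in BRAF NEG cells (log2 difference 1.49, SE 0.31, limma adjusted p = 0.00489). Slc6a19, which takes up neutral amino acids, had 8.76, 8.49 and 9.32 in BRAF R cells, against 8.25, 7.58 and 7.84 in BRAF NEG cells (0.97, SE 0.30, limma adjusted p = 0.0433). Slc7a7 had a difference of 0.73 (SE 0.20, limma adjusted p = 0.0249). In each of these 3 genes the lowest BRAF R array lay above the highest NEG array. Of the enterocyte markers 2 of 13 were higher in BRAF R cells. Their intensities summed to 17376 to 29418, against 12849 to 13961 in BRAF NEG cells. The part of enterocyte signal in these differences was not tested.

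Slc38a2, a sodium-coupled carrier of small neutral amino acids that is known to rise when amino acids are scarce, had 10.13, 10.15 and 10.02 in BRAF R cells, against 9.71, 9.29 and 9.41 in BRAF NEG cells (0.63, SE 0.18, limma adjusted p = 0.0315). Slc38a11, of the same family, had 7.92, 7.87 and 8.00 in BRAF R cells, against 6.59, 7.20 and 7.04 in BRAF NEG cells (0.99, SE 0.21, limma adjusted p = 0.00563). The creatine carrier Slc6a8, placed with its family, rose by 0.93 (SE 0.24, limma adjusted p = 0.0205). The glutamate carrier Slc1a3 was the amino acid carrier that fell, with 7.40, 7.85 and 7.54 in BRAF R cells, against 8.74, 8.40 and 8.21 in BRAF NEG cells (-0.85, SE 0.21, limma adjusted p = 0.0135).

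Other well-known amino acid and peptide carriers did not pass in this comparison. The peptide carrier Slc15a1 had a difference of 0.97 (limma adjusted p = 0.126 without and 0.0285 with the mouse as a block). Slc7a11, the cystine and glutamate exchanger that supplies glutathione synthesis, had 7.03, 8.14 and 6.56 in BRAF R cells, against 6.32, 6.90 and 6.41 in BRAF NEG cells. Its groups overlap, and the difference of 0.70 passed only with the block (limma adjusted p = 0.255 without it and 0.0305 with it). Slc7a5, the large neutral amino acid exchanger, had a difference of -0.47 (limma adjusted p = 0.134, and 0.0411 with the block), and its heavy chain Slc3a2 one of 0.17 (limma adjusted p = 0.539). The block in these fits was fixed. With the mouse as a random block Slc15a1, Slc7a11 and Slc7a5 did not pass.

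Among ion carriers Slc4a11, of the bicarbonate carrier family, had 7.84, 9.34 and 7.94 in BRAF R cells, against 6.79, 6.73 and 6.52 in BRAF NEG cells, which lay below the array median. It was at least 2.77-fold higher in BRAF R cells (limma adjusted p = 0.00772). Slc8a1, the plasma membrane sodium-calcium exchanger, had 8.82, 8.30 and 8.06 in BRAF R cells, against 7.35, 7.40 and 7.15 in BRAF NEG cells (1.10, SE 0.26, limma adjusted p = 0.0110). The phosphate carrier Slc20a1 rose by 0.57 (SE 0.15, limma adjusted p = 0.0216). The BRAF R arrays of these 3 genes all lay above the NEG arrays.

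Metal and other carriers changed in both directions. The copper carrier Slc31a2 (0.91, SE 0.23, limma adjusted p = 0.0177), the magnesium carrier Slc41a2 (0.77, SE 0.20, limma adjusted p = 0.0186) and the zinc carrier Slc30a4 (0.73, SE 0.20, limma adjusted p = 0.0269) rose. Slc41a3 had 6.44, 6.68 and 7.05 in BRAF R cells, against 8.38, 8.44 and 7.90 in BRAF NEG cells, at least 2.45-fold lower (limma adjusted p = 0.000267). Its other kept probes, above the array median on 5 and 6 arrays, differed by -0.72 and -0.27. Slc44a2, a choline carrier, fell the most of all, with 6.77, 8.10 and 7.40 in BRAF R cells, against 9.12, 9.51 and 8.98 in BRAF NEG cells (-1.78, SE 0.30, limma adjusted p = 0.00128). The other kept Slc44a2 probes, above the array median on 3 and 4 arrays, differed by -0.77 and -0.04. The iron carriers did not pass: Slc40a1, the iron exporter, had a difference of -0.01 (limma adjusted p = 0.993) and the iron importer Slc11a2 one of 0.04 (limma adjusted p = 0.949).

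The lower genes also included Slc10a4, of the bile acid carrier family but not known to carry bile acids, at least 1.30-fold lower (limma adjusted p = 0.00310), and the monocarboxylate carrier family member Slc16a13, at least 1.54-fold lower (limma adjusted p = 0.0164). Leukocyte marker genes moved with these. All 20 were above the array median in every BRAF NEG array, where their intensities summed to between 23665 and 34594, against 2306 to 2941 in BRAF R cells, where 13 or 14 of the 20 lay at or below the median on each array, and 19 of the 20 were lower in BRAF R cells. Of the enteroendocrine markers 11 of 13 were higher in BRAF R cells, with sums of 25859 to 58789, against 12815 to 19436 in NEG cells, while 7 of 8 tuft cell markers (735 to 1048, against 1528 to 2870) and 6 of 12 stem cell markers (4494 to 5700, against 10679 to 12818) were lower. Goblet markers were higher in BRAF R cells for 2 of 7 (29836 to 39986, against 18535 to 25334). Slc10a4 lay above the array median only on the BRAF NEG arrays, and Slc2a3 on these and 1 BRAF R array. Both thus passed the filter only through the NEG gate. For Slc2a3 and Slc10a4 the non-red G gate, whose leukocyte markers summed to 2119 to 2160, is a second low group: Slc2a3 had 6.39, 6.26 and 6.36 in BRAF G cells, and Slc10a4 had 6.41, 6.40 and 6.33, all at or below the median. The part of such cells in the Slc differences was not tested, and in sorted bulk samples fewer cells of a type and less RNA per cell cannot be told apart.

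Only Slc41a3, Slc44a2 and Slc4a11 of the 21 passed under every alternative that was run. The count of Slc genes was 13 without BRAF mouse 1, 8 without mouse 2 and 10 without mouse 3. The shares of all genes called in these fits were 6.4%, 5.77% and 6.65%.

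**Figure D2:**
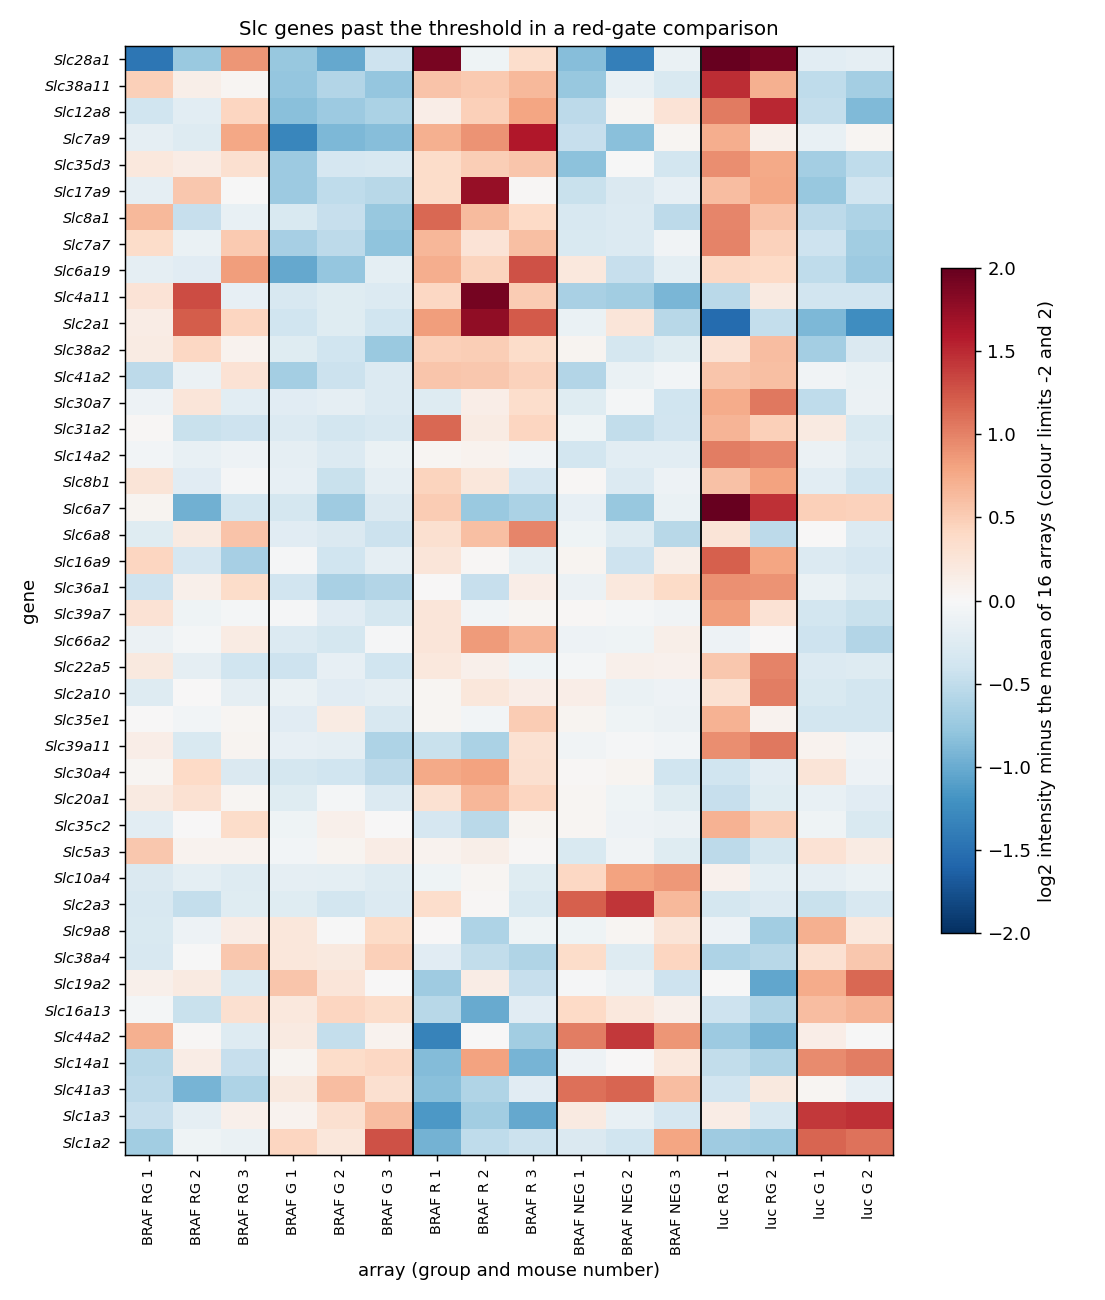
Colour map of the 42 Slc genes (rows) past the threshold in at least 1 of the 3 red against non-red comparisons, over the 16 arrays (columns, by group and mouse); colour is log2 intensity minus the gene's mean over all arrays. Genes higher in the red gates stand at the top and lower ones at the bottom, as chosen by the same arrays, and the luc RG columns are the most strongly coloured for genes such as Slc28a1 and Slc12a8.

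The luciferase line gave more Slc calls than the BRAF line in the same gates. Between luc RG and luc G cells 20 Slc genes were higher and 8 lower, 10.5% and 4.21% of the 190, over a background of 11.9% of all genes, 5.11% higher and 6.78% lower. The median difference was 0.23 for Slc genes (0.17 with dim genes at their bound), beside -0.01 over all genes. As the 2 lines share no array, their calls can be set side by side: 5 genes were higher both here and in BRAF R against BRAF NEG (Slc7a7, Slc38a2, Slc38a11, Slc8a1 and Slc35d3), 25% of the 20 and 33.3% of the 15. Slc1a3 and Slc16a13 were lower in both, 25% of the 8 and 33.3% of the 6, and 0 genes passed in opposite directions. The gates differ, Lgr5-high here and Lgr5-low in the BRAF comparison. Shared calls were not counted over all genes, so the overlap cannot be read as a trait of Slc genes.

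The 2 genes with the highest differences past the threshold were a nucleoside carrier and an ion carrier. Slc28a1 had 9.79 and 9.57 in luc RG cells, against 7.44 and 7.49 in luc G cells (log2 difference 2.22, SE 0.64, limma adjusted p = 0.0363). Slc12a8, a member of the cation-chloride cotransporter family, had 10.82 and 11.30 in luc RG cells, against 9.32 and 8.91 in luc G cells (1.95, SE 0.31, limma adjusted p = 0.00119). Both red arrays were over 1 log2 unit above both non-red arrays in these genes. Slc8a1 rose by 1.34 (SE 0.31, limma adjusted p = 0.0120). The urea carrier Slc14a2 had 7.61 and 7.56 in luc RG cells, against 6.47 and 6.33 in luc G cells, at least 1.61-fold higher (limma adjusted p = 0.000343). It passed the filter only through these luc RG arrays, so it could enter the set only by being high there.

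Amino acid carriers counted 5 higher and 3 lower of 40, over 5.11% and 6.78% of all genes. Slc38a11 had 8.83 and 8.05 in luc RG cells, against 6.84 and 6.67 in luc G cells, at least 2.91-fold higher (limma adjusted p = 0.000810). Slc6a7 had 10.95 and 10.29 in luc RG cells, against 9.29 and 9.27 in luc G cells (1.34, SE 0.39, limma adjusted p = 0.0384). Slc7a7 had 10.28 and 9.74 in luc RG cells, against 8.87 and 8.59 in luc G cells (1.28, SE 0.24, limma adjusted p = 0.00365). The red arrays were the higher ones in all 3 genes. Slc36a1, a proton-coupled carrier of small amino acids, rose by 1.10 (SE 0.26, limma adjusted p = 0.0119), and Slc38a2 by 0.94 (SE 0.22, limma adjusted p = 0.0120). The other kept Slc38a2 probes, above the array median on all 16 arrays, differed by 0.08 and 0.27 only.

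The lower amino acid carriers included both glial-type glutamate carriers. Slc1a3 had 8.70 and 8.24 in luc RG cells, against 9.97 and 10.02 in luc G cells (-1.53, SE 0.25, limma adjusted p = 0.00169). Slc1a2 had 6.52 and 6.48 in luc RG cells, below the array median, against 8.40 and 8.31 in luc G cells, at least 2.74-fold lower (limma adjusted p = 0.00562), and its 3 other kept probes, all dimmer, differed by -0.49, -0.46 and 0.34. The neutral amino acid carrier Slc38a4 was at least 1.78-fold lower (limma adjusted p = 0.0259). The epithelial glutamate carrier Slc1a1 had 9.60 and 9.61 in luc RG cells, against 10.57 and 10.53 in luc G cells, without overlap, and its difference of -0.94 did not pass (limma adjusted p = 0.183).

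Metal, vesicular and Slc35 carriers past the threshold were all higher in luc RG cells, with 3 of 25, 1 of 8 and 3 of 20 called. Over all genes 11.9% passed in this comparison, 5.11% higher and 6.78% lower, and these classes are small. The zinc carriers of the Golgi and endoplasmic reticulum, Slc30a7 (1.21, SE 0.23, limma adjusted p = 0.00392) and Slc39a7 (0.97, SE 0.21, limma adjusted p = 0.00758), rose, as did the zinc carrier family member Slc39a11 (1.00, SE 0.26, limma adjusted p = 0.0229). The other kept Slc30a7 probe, above the array median on all 16 arrays, differed by 0.25 only, and those of Slc39a7 by 0.45 and 1.02. Slc17a9, which loads nucleotides into vesicles, was at least 1.94-fold higher (limma adjusted p = 0.0491). The Slc35 genes were Slc35d3, at least 1.89-fold (limma adjusted p = 0.00126), Slc35c2 (0.79, limma adjusted p = 0.0295) and Slc35e1 (0.75, limma adjusted p = 0.0480).

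The remaining changes fell in several classes. The carnitine-related carriers Slc16a9 (1.30, SE 0.30, limma adjusted p = 0.0113) and Slc22a5 (1.03, SE 0.21, limma adjusted p = 0.00600) rose, although the 2 other kept Slc22a5 probes differed by 0.14 and -0.14. The thiamine carrier Slc19a2 had 9.59 and 8.55 in luc RG cells, against 10.33 and 10.74 in luc G cells (-1.47, SE 0.33, limma adjusted p = 0.0105). The urea carrier Slc14a1 was at least 2.42-fold lower (limma adjusted p = 0.0277), opposite in direction to Slc14a2, and Slc16a13 at least 2.13-fold lower (limma adjusted p = 0.00883). Slc9a8, a sodium-proton exchanger, fell by 0.86 (limma adjusted p = 0.0475), with its 2 other kept probes at -0.34 and 0.13, and the inositol carrier Slc5a3 was at least 1.01-fold lower (limma adjusted p = 0.0325). Slc2a1 did not change detectably in this line, with 9.09 and 10.15 in luc RG cells, against 9.73 and 9.39 in luc G cells (difference 0.06, limma adjusted p = 0.940).

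Slc2a2 and Slc6a19 had higher means in luc RG cells and passed only under some alternatives, among them the mouse as a block. Both also passed when only these groups were fitted (limma adjusted p = 0.0310 and 0.0493). Slc6a19 passed without BRAF mouse 3 as well (limma adjusted p = 0.0263). Slc2a2 had 9.59 and 9.48 in luc RG cells, against 7.74 and 8.13 in luc G cells (1.59, limma adjusted p = 0.0890, and 0.0383 with the mouse as a block). Slc6a19 had 8.45 and 8.44 in luc RG cells, against 7.53 and 7.32 in luc G cells (1.02, limma adjusted p = 0.0791, and 0.0235 with the block). Goblet cell markers moved with the luc red gate: 7 of 7 were higher, with summed intensities of 42497 to 46492 in luc RG cells, against 8107 to 8762 in luc G cells. Of the enteroendocrine markers 9 of 13 were higher (39093 to 39220, against 7951 to 9779), and of the enterocyte markers 2 of 13 (26871 to 28370, against 14322 to 14350). Paneth cell markers were higher for 3 of 5 (32996 to 33751, against 19253 to 20189). Stem cell markers were lower in luc RG cells for 5 of 12 (7471 to 7495, against 13626 to 14588). Tuft cell markers were lower for 4 of 8 (1109 to 1170, against 1936 to 2072). Their part in the Slc differences was not tested. Without luc mouse 1 the Slc count was 11 and without luc mouse 2 it was 9, and Slc14a2 was the 1 gene that passed under every alternative.

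Between the red Lgr5-high gates of the 2 lines, BRAF RG against luc RG, 10 Slc genes were higher and 28 lower in BRAF RG cells, 5.26% and 14.7% of the 190. The background was 16.6% of all genes, 9.55% higher and 7.05% lower, so calls over all genes were more often higher and Slc calls more often lower; the difference between these splits was not tested. The median difference was -0.20 for Slc genes (-0.17 with dim genes at their bound), beside -0.01 over all genes. Amino acid carriers gave 2 higher and 8 lower, metal carriers 0 higher and 6 lower, and sugar carriers 2 higher and 4 lower.

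Slc2a1 was the highest riser. Its 10.78, 11.84 and 11.07 in BRAF RG cells lay above the 9.09 and 10.15 in luc RG cells, a log2 difference of 1.61 (SE 0.35, limma adjusted p = 0.00769). Slc7a5 had 8.57, 8.71 and 8.49 in BRAF RG cells, against 7.44 and 7.91 in luc RG cells (0.91, SE 0.22, limma adjusted p = 0.0117), while its heavy chain partner Slc3a2 had 9.03, 9.01 and 9.43, against 9.87 and 9.68 in luc RG cells (-0.62, SE 0.19, limma adjusted p = 0.0349). The 2 chains of this exchanger thus differed in opposite directions between the lines. The neutral amino acid carrier Slc38a1 was higher by 0.96 (SE 0.32, limma adjusted p = 0.0497) and Slc20a1 by 0.52 (SE 0.17, limma adjusted p = 0.0438).

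The other higher genes came from different classes. Slc27a6, a fatty acid carrier family member, had 7.67, 8.92 and 7.56 in BRAF RG cells, against 6.63 and 6.50 in luc RG cells, at least 2.22-fold higher (limma adjusted p = 0.0302). Slc10a3 had a difference of 1.24 (SE 0.31, limma adjusted p = 0.0147). The Golgi and endoplasmic reticulum carrier Slc35d1 had one of 1.02 (SE 0.28, limma adjusted p = 0.0234). Slc66a1, a lysosomal exporter of cationic amino acids, was at least 1.17-fold higher (limma adjusted p = 0.0105), Slc5a3 at least 1.02-fold (limma adjusted p = 0.0160) and the sodium-chloride cotransporter Slc12a3 higher by 0.54 (SE 0.16, limma adjusted p = 0.0358). As Slc5a3 passed the filter partly through the BRAF RG gate, the high side here, its p-value carries little weight.

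Slc28a1 and Slc2a2 were among the genes with the lowest differences. Slc28a1 had 6.22, 6.93 and 8.54 in BRAF RG cells, against 9.79 and 9.57 in luc RG cells (-2.45, SE 0.59, limma adjusted p = 0.0116). Slc2a2 had 6.45, 7.39 and 8.61 in BRAF RG cells, against 9.59 and 9.48 in luc RG cells (-2.05, SE 0.54, limma adjusted p = 0.0180). The spread within BRAF RG was wide for both, with mouse 3 the highest. The other kept Slc2a2 probes, above the array median on 4 and 3 arrays, differed by -0.50 and -0.56 only. Slc5a1 was also highest in mouse 3, with 9.31, 9.20 and 10.62 in BRAF RG cells, against 11.17 and 10.68 in luc RG cells, and did not pass (-1.21, limma adjusted p = 0.0734).

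Amino acid carriers were the largest class among the lower genes. Slc6a7 had 8.88, 7.86 and 8.45 in BRAF RG cells, against 10.95 and 10.29 in luc RG cells (-2.22, SE 0.36, limma adjusted p = 0.00150). Slc6a20a had 6.60, 6.50 and 7.66 in BRAF RG cells, against 9.24 and 8.41 in luc RG cells (-1.90, SE 0.36, limma adjusted p = 0.00358). Slc43a2 (-1.52, SE 0.47, limma adjusted p = 0.0399) and Slc7a8, a basolateral neutral amino acid exchanger (-1.32, SE 0.42, limma adjusted p = 0.0441), were also lower. The other kept probe of Slc43a2, above the array median on 5 arrays, differed by -0.51 only. That of Slc7a8, above it on 13 arrays, differed by -0.39. In the metal class the lower genes included Slc39a13 (-1.30, SE 0.35, limma adjusted p = 0.0197) and Slc39a8, one of the 5 brightest, with 10.34, 10.39 and 10.92 in BRAF RG cells, against 11.22 and 11.27 in luc RG cells (-0.69, SE 0.21, limma adjusted p = 0.0385). The other kept probe of Slc39a13, above the array median on all 16 arrays, differed by -0.19 only, and that of Slc39a8 by -0.39. Slc12a8 was lower by 1.33 on the log2 scale, with 9.40, 9.58 and 10.22 in BRAF RG cells, against 10.82 and 11.30 in luc RG cells (limma adjusted p = 0.00631).

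Marker lists differed between these gates too. Goblet markers were lower in BRAF RG cells for 6 of 7, with sums of 13864 to 24564, against 42497 to 46492 in luc RG cells. Enteroendocrine markers were lower for 7 of 13 and higher for 1, with sums of 15550 to 18319, against 39093 to 39220, and enterocyte markers were lower for 4 of 13 (9709 to 25157, against 26871 to 28370). Their part in the Slc differences was not tested. The Slc count was 24, 14 and 32 without BRAF mouse 1, 2 and 3, over 13.4%, 8.69% and 12.0% of all genes. With estimated array weights, under which the luc RG arrays weigh 0.410 each, it was 10, over 5.89% of all genes. Slc6a7 and Slc14a2 passed under every alternative. Slc14a2 entered the tested genes only through the luc RG arrays, the high side of this comparison, so its call carries little weight.

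**Figure D3:**
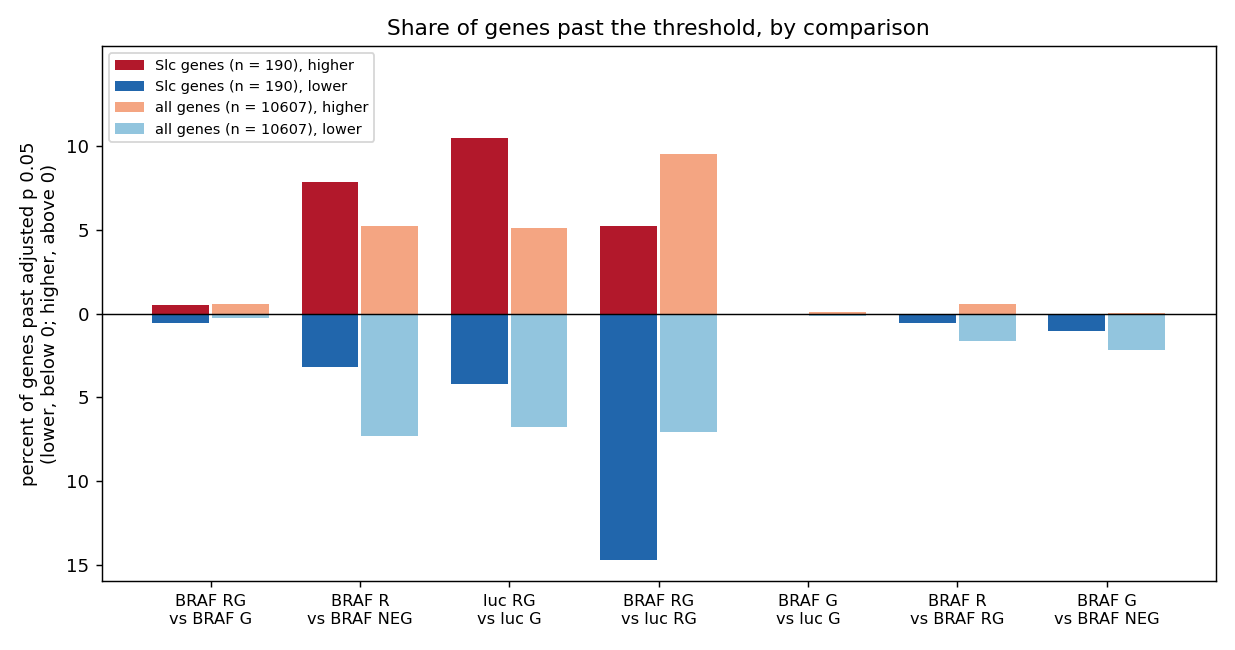
Percent of genes (vertical axis) past adjusted p 0.05 in 7 comparisons between groups (horizontal axis), higher above 0 and lower below 0, for the 190 Slc genes and for all 10607 genes. Slc genes were 14.7% lower and 5.26% higher in BRAF RG against luc RG, beside 7.05% lower and 9.55% higher over all genes.

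Non-red Lgr5-high cells of the 2 lines, BRAF G against luc G, gave 0 Slc genes past the limma threshold, with 19 of 190 at an unadjusted p under 0.05, over a background of 0.217% of all genes, 0.0848% higher and 0.132% lower. The smallest adjusted p, 0.0832, was that of Slc1a3, which had 8.63, 8.88 and 9.18 in BRAF G cells, against 9.97 and 10.02 in luc G cells (-1.10, SE 0.23). The iron exporter Slc40a1 had 7.46, 7.18 and 7.59 in BRAF G cells, against 9.20 and 8.40 in luc G cells. Its groups did not overlap, but the difference of -1.39 did not pass in the main fit (limma adjusted p = 0.228). It passed with array weights (limma adjusted p = 0.00184) and when only these groups were fitted (limma adjusted p = 0.00889). With these weights 24 Slc genes passed, over a background of 9.94% of all genes in that fit. When only these groups were fitted 17 passed, over a background of 3.61%.

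Within the red cells of the BRAF line, BRAF R against BRAF RG, 1 Slc gene was lower and 0 higher, over a background of 2.21% of all genes, 0.566% higher and 1.64% lower. Slc7a5 had 7.55, 7.84 and 7.54 in BRAF R cells, against 8.57, 8.71 and 8.49 in BRAF RG cells (-0.94, SE 0.20, limma adjusted p = 0.0237). All 3 Lgr5-low fractions lay below all 3 Lgr5-high ones. With the mouse as a fixed block the count was 10, 7 higher and 3 lower, over a background of 5.4% of all genes in that fit. Slc7a5 did not pass when any 1 BRAF mouse was left out, and 28 Slc genes had an unadjusted p under 0.05 with all mice.

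Within the non-red cells, BRAF G against BRAF NEG, 2 Slc genes were lower and 0 higher, over a background of 2.21% of all genes, 0.0189% higher and 2.19% lower. Slc2a3 was at least 1.77-fold lower in BRAF G cells (-1.39, SE 0.20, limma adjusted p = 0.000375) and Slc10a4 at least 1.30-fold (-0.90, SE 0.15, limma adjusted p = 0.00193). In BRAF NEG cells Slc10a4 had 7.00, 7.38 and 7.45, above every other array. It lay above the array median on these arrays only, and Slc2a3 on the 3 NEG arrays and 1 BRAF R array. Both thus entered the tested genes only through the NEG gate, where they are high, and their p-values carry little weight. Leukocyte markers were lower in BRAF G cells for 18 of 20, and the part of this in the Slc differences was not tested. Slc2a3 passed under every alternative.

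The red-gate change of the BRAF line (BRAF RG minus BRAF G) was set against that of the luciferase line (luc RG minus luc G) in an interaction term. Slc14a2 was the only Slc gene past the threshold, over a background of 0.481% of all genes, 0.189% higher and 0.292% lower, with 31 Slc genes at an unadjusted p under 0.05. Its change was 1.09 lower on the log2 scale in the BRAF line (-1.09, SE 0.20, limma adjusted p = 0.0338). Slc14a2 had 6.53, 6.43 and 6.48 in BRAF RG cells, against 6.40, 6.30 and 6.45 in BRAF G cells, all below the array median, beside 7.61 and 7.56 in luc RG cells, against 6.47 and 6.33 in luc G cells. It did not pass when any 1 mouse of either line was left out. The median Slc gene had -0.12 in this term, beside 0.02 over all genes.

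For genes with large changes in 1 line, the interaction was not shown. Slc28a1 had a red-gate change of 0.30 in the BRAF line and 2.22 in the luciferase line, and the difference of -1.92 (SE 0.83) had a limma adjusted p of 0.330. Slc12a8 had 0.68 and 1.95, a difference of -1.27 (SE 0.40, limma adjusted p = 0.163). Slc2a1 had 0.94 and 0.06, a difference of 0.88 (SE 0.50, limma adjusted p = 0.475). Slc41a3 had -1.07 and -0.03, a difference of -1.04 (SE 0.34, limma adjusted p = 0.174). Slc7a7 rose in both lines, by 0.92 in the BRAF line and 1.28 in the luciferase line.

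**Figure D4:**
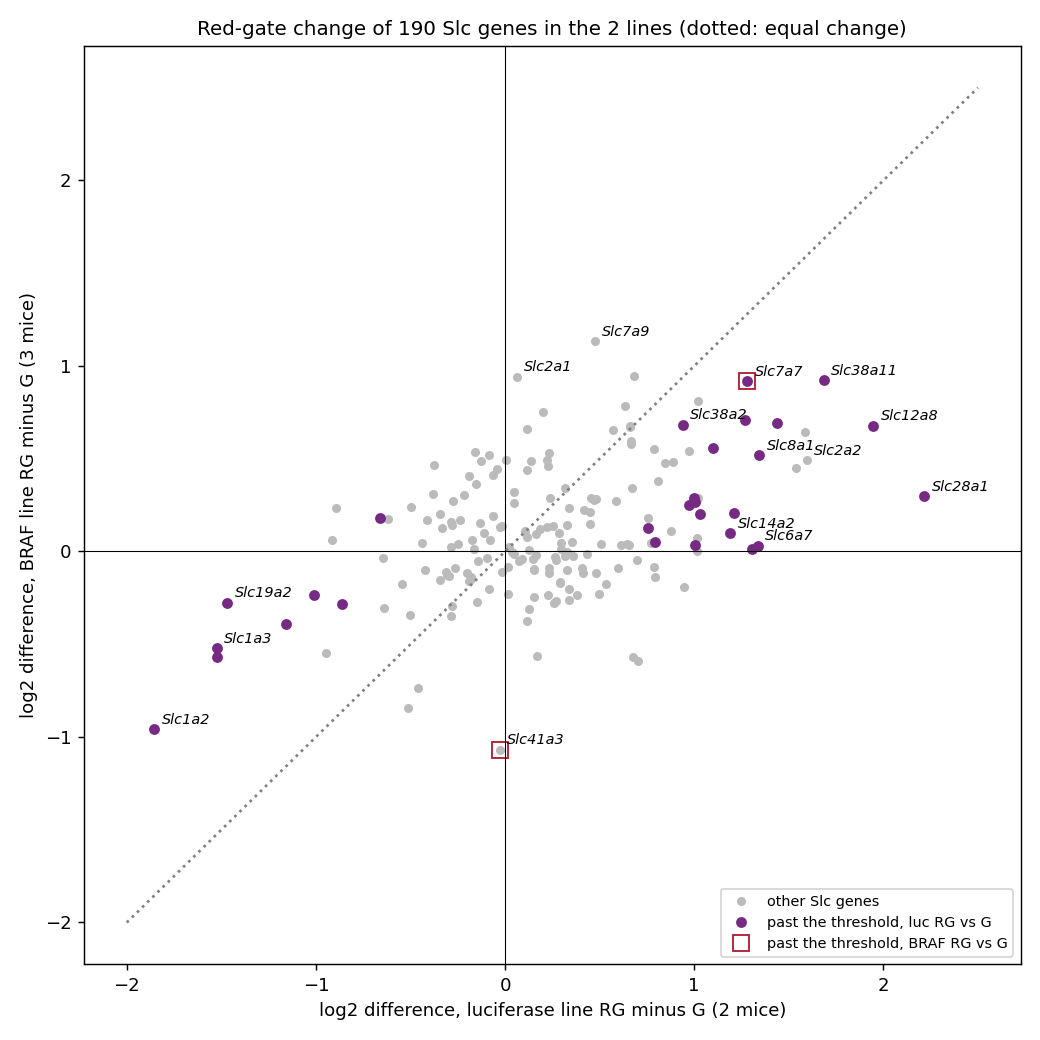
Log2 difference between red and non-red Lgr5-high cells for each of the 190 Slc genes, in the luciferase line (horizontal axis, 2 mice) and the BRAF line (vertical axis, 3 mice); colours mark genes past the threshold and the dotted line equal change. Slc7a7 changed by 0.92 in the BRAF line and 1.28 in the luciferase line, while Slc14a2 (0.10 in the BRAF line, 1.19 in the luciferase line) and Slc28a1 (0.30 in the BRAF line, 2.22 in the luciferase line) lie farther below the dotted line.

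Several carriers of the well-known list showed no call in any comparison. Among them were the monocarboxylate carrier Slc16a3, the zinc exporter Slc30a1, the fatty acid carrier Slc27a4 and the phosphate carrier Slc34a2, as well as Slc39a4, the zinc importer of enterocytes, the chloride-bicarbonate exchanger Slc26a3, the bile acid carriers Slc10a2, Slc51a and Slc51b, the folate carrier Slc46a1 and the iron carriers Slc11a2 and Slc40a1. Slc51b, a subunit of the basolateral bile acid exporter, had 8.45, 7.27 and 9.10 in BRAF R cells, against 6.78, 7.18 and 7.94 in BRAF NEG cells, which overlap. Its difference of 0.97 had a limma adjusted p of 0.198, and of 0.0403 with the mouse as a fixed block. With a random block it did not pass. Slc27a4 and Slc34a2 were near the filter, above the median on 2 arrays each, as were 9 other Slc genes.

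Other genes of membrane transport, from lists that hold no Slc gene, were read beside these. Of 29 ABC transporters, 3 were higher and 1 lower in luc RG against luc G cells, over 5.11% and 6.78% of all genes. Among the higher ones was Abcb9, the lysosomal peptide transporter (2.18, limma adjusted p = 0.00175). In BRAF R against BRAF NEG cells, Abcc8, a subunit of the ATP-sensitive potassium channel, was the 1 called (0.57, limma adjusted p = 0.00706). Of 4 Slco organic anion carriers, the prostaglandin carrier Slco2a1 rose in BRAF R cells (1.65, limma adjusted p = 0.0105) and Slco4a1 fell (-0.70, limma adjusted p = 0.0364). In BRAF R against BRAF NEG cells 5.26% of all genes were higher and 7.3% lower.

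Of 12 genes for the sodium pump, channels and scaffolds that work with transporters, 1 was higher and 4 lower in BRAF R against BRAF NEG cells (median -0.12), over the 5.26% higher and 7.3% lower of all genes. In luc RG against luc G cells 0 were higher and 4 lower (median 0.01), over 5.11% and 6.78%, and in BRAF RG against luc RG cells 3 were higher and 1 lower (median 0.32), over 9.55% and 7.05%. The potassium channel Kcnq1, which recycles potassium at the basolateral membrane, fell in BRAF R against BRAF NEG cells (-1.18, limma adjusted p = 0.00519) and in luc RG against luc G cells (-1.70, limma adjusted p = 0.00238), and so did its subunit Kcne3 (-0.98, limma adjusted p = 0.00217, and -1.22, limma adjusted p = 0.00276). The membrane linker Ezr rose in BRAF R cells (0.83, limma adjusted p = 0.0111). Of 19 genes of the amino acid response, the program that also controls several amino acid carriers, 2 were higher in BRAF R cells (Chac1 and Ddit4) and 3 in luc RG cells (Atf4, Gpt2 and Vldlr), and 0 were lower in either. Of 10 iron and zinc genes, the transferrin receptor Tfrc fell in BRAF R cells (-0.73, limma adjusted p = 0.0470) and in luc RG cells (-0.90, limma adjusted p = 0.0456). The shares of all genes given above for these comparisons apply to the amino acid response list and the iron and zinc list too.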

How the data were processed

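RNA of 16 sorted fractions was measured on Illumina bead arrays. The intensity values that the authors deposited were not rescaled. Per the submitters' processing notes the authors used GenomeStudio; its version, the normalization and the background correction are not given in the sources used here. Linear intensities ran from 55.7 to 40121.2 for 25697 probes, and the sorted values of the arrays agree within 1.2, so all arrays share 1 distribution (medians 118.9 to 119.9) and the number of arrays limits the precision. A lowest value of 55.7 leaves room for background in every value, in which case folds are understated, most for dim genes. A non-normalized table was not used, because its 32 columns match no label.

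Of the probes, 23978 had 1 symbol in the platform annotation and 1719 none. A probe had to exceed the array median on 2 or more arrays, and the brightest such probe stood for its gene (10607 genes; 2905 had more than 1, among them 40 of the Slc genes). Log2 intensities of all 6 groups entered 1 fit of limma 3.58.1 under R 4.3.3 (lmFit, eBayes; 10 residual degrees of freedom), and p-values were adjusted by Benjamini-Hochberg over all genes, with 0.05 as the threshold. Where a gene does not exceed the array median in any sample of a group, or its group mean lies below it, its change has a bound ("at least N-fold"), against the higher of the array median and its own signal. The fit was tested on simulated data.

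Same-mouse gates share an animal per the labels. Deviations from group means correlated over 0.1 in 18 of 18 same-mouse BRAF pairs (median r 0.319 across genes) and at 0.0457 in the luciferase line. Named were the 8 highest and 8 lowest called Slc genes per comparison, 31 well-known transporters, the 5 brightest and the 8 with the largest range. The other called Slc genes named, and the genes named from the transport lists, were chosen after their values were seen. Members and lists were chosen with earlier results of these data known. Alternatives were a mouse block, array weights, other filters, a floor, probe means, fewer groups and leaving out each mouse.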

Additional observations from a re-analysis of the deposited data

Results flagged for a closer look

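The difference between the lines in the red-gate change of Slc14a2 (-1.09 on the log2 scale, SE 0.20, limma adjusted p = 0.0338 over all genes) is listed because it was past the threshold in the interaction term. The p-value carries little weight: the probe lay above the array median on the 2 luc RG arrays and on no other array, so it entered the tested genes through the same high values that the term compares. It was not past the threshold when any 1 mouse was left out. No other Slc gene passed this term.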

How the results depend on the processing

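Counts of called Slc genes moved with several choices, and the cause was not tested. The shares of all genes called moved too, so these counts are not read as a trait of Slc genes. For BRAF RG against BRAF G the share was 0.801% as reported, 1.89% with the fixed block and 2.75% with array weights. For BRAF RG against luc RG it was 16.6% as reported, 5.89% with array weights and 3.23% with only the compared groups. For BRAF RG against BRAF G (2 as reported) the Slc count was 7 with the mouse as a fixed replicate block, 6 as a random block, 9 with array weights, 1 without the filter on dim probes and 0 with values floored at the array median. It was 0 when any 1 BRAF mouse was left out and 3 without the BRAF R array of mouse 1. For BRAF R against BRAF NEG (21) it was 11 when only the compared groups were fitted, 8 to 23 without each mouse and 23 without that array. For luc RG against luc G (28) these were 18, 9 to 29 and 33. For BRAF RG against luc RG (38) it was 10 with array weights, 2 with only the compared groups, 14 to 32 without each mouse and 42 without that array. For BRAF G against luc G (0) the Slc count was 24 with array weights and 17 with only the compared groups, over 9.94% and 3.61% of all genes. For BRAF R against BRAF RG (1) it was 10 and 8 with the fixed and random blocks, 0 with only the compared groups, 2 with the floor and 0 to 3 without each mouse. For BRAF G against BRAF NEG (2) it was 9 with array weights, 7 with only the compared groups, 1 with the floor and 1 to 3 without each mouse. For the red-gate change (1) it was 2 with the fixed block, 2 with the floor, 0 without each mouse and 1 without that array. Of 1262 alternative values of the 93 calls, 891 kept the call and its direction, 371 kept the direction only, and 0 turned it. The fixed block lost no call and cannot be estimated between the lines. The background correction from detection p-values was not run, because the columns of the non-normalized table match no label. Leaving out that BRAF R array was added after seeing the data. Small groups limit every call: 2 mice in the luciferase line leave little to estimate the spread of its gates.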
